A study of Homo sapiens with 39 samples.

Results

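Ribosome biogenesis and nucleolar genes encode the proteins that make, cut, modify and assemble ribosomal RNA. The 38 genes described here were taken as a fixed list by name, chosen with earlier results of these data known. Each gene was read from the probe set that names only its symbol and has the highest mean over all 39 arrays, and 37 of the 38 were measured among 18132 genes tested. GNL3 has no probe set naming it alone in the annotation used and is not analysed here. Affymetrix PrimeView arrays were hybridised with RNA of 7 established human acute myeloid leukemia (AML) cell lines, namely OCI-AML3, Sig-M5, MV-4-11, NOMO-1, Kasumi-1, OCI-M1 and KG-1a. Cells of each line received tamibarotene (SY-1425), an agonist of the retinoic acid receptor alpha, or DMSO as vehicle, and all were harvested after 24 h. Per the labels the drug was added at 100 nM, which gave a final concentration of 50 nM. The 21 tamibarotene arrays are 3 per line, and the 18 vehicle arrays are 3 per line, except for 2 each in Kasumi-1, KG-1a and Sig-M5. No label says that replicates were separate cultures, so p-values measure the spread between these samples, which may be technical.

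Ribosome synthesis starts in the nucleolus, where RNA polymerase I copies the ribosomal DNA into a long precursor. Small nucleolar ribonucleoproteins (snoRNPs) modify this RNA, the box C/D kind by methylation and the box H/ACA kind by pseudouridylation, while the small subunit processome and the large subunit assembly factors fold, cut and build it into both ribosomal subunits. Many of these genes are classical targets of the transcription factor MYC, which binds the E-box sequence CACGTG, and their products are abundant in proliferating leukemia cells. Retinoic acid receptor agonists drive myeloid cells towards maturation, during which ribosome production is known to decline. The members were grouped by role into 7 sets, from RNA polymerase I to large subunit assembly.

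Promoter windows were read for the E-box, because it is the site through which MYC is known to act on this gene class. The RefSeq table of assembly GRCh38.p14 holds windows from 250 bases before to 50 bases after the start of 33 of the 38 members, 39 windows in all. CACGTG, which reads the same on both strands, was found in 16 of these 33 members (48.5%) and in 8.77% of the 27305 genes of the table; by window the shares were 41.0% and 7.26%. In 5 members the E-box lay wholly before the start. Those stretches are printed 5′ to 3′ on the gene's strand, with the E-box in capitals, up to the last base before the start or 20 bases past the motif:
DDX21, chr10:68956596-68956641, plus strand: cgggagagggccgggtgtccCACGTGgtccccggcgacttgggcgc
LYAR, chr4:4290060-4290105, minus strand: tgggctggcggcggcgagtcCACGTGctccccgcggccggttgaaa
NAT10, chr11:34105594-34105628, plus strand: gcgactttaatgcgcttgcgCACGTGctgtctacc
UTP20, chr12:101280075-101280104, plus strand: gcgccgttcttttttccgtcCACGTGaccc
UTP4, chr16:69132613-69132648, plus strand: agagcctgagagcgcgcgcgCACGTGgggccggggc
The first base of the E-box lay 31 bases before the start in DDX21, 64 in LYAR, 15 in NAT10, 10 in UTP20 and 16 in UTP4. The retinoic acid receptor element letters AGGTCA, searched on both strands, were found in 4 of the 33 members (12.1%), namely NOP16, NHP2, DDX21 and UTP4, and in 16.5% of all genes of the table. The direct repeat of these letters, spaced as in the classical retinoic acid response element, was found in 0 of the 33 members and in 2 of the 27305 genes. The shares of all genes cover the whole promoter table, not the 18132 genes tested here, and were not matched for base composition or expression. These matches describe letters in the window and say nothing of binding.

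All values are deposited log2 intensities and all changes are tamibarotene minus vehicle on the log2 scale, with the standard error of the fit (± SE). A gene was called when its limma p, adjusted by Benjamini-Hochberg over all 18132 genes, was under 0.05. Array medians ran from 5.01 to 5.17. RNA integrity was read as the 3′ minus the 5′ signal of beta-actin, which is larger in degraded RNA; it was 1.18 and 0.30 in the Kasumi-1 vehicle replicates 2 and 3, 0.81 and 1.89 in the Sig-M5 vehicle replicates 1 and 2, and between -0.02 and 0.56 in the 35 arrays other than the vehicle arrays of those lines. Of these 35, the OCI-M1 vehicle replicates 2 and 3 were the highest (0.52 and 0.56). The labelled cell type was checked with marker genes, averaged within each single array, tamibarotene and vehicle alike. The AML markers PTPRC, SPI1, MPO, CD34, KIT and LYZ averaged 5.26 to 8.99 per array. The B and T cell markers MS4A1, CD79A, CD3E and CD3D averaged 3.99 to 6.51 per array. These ranges overlap, so the averages do not settle the cell type of every array. The adherent cell markers EPCAM, CDH1, KRT18, KRT19, COL1A1 and COL1A2 averaged 3.82 to 5.23. As means of vehicle arrays, CD3D stood at 12.26 in KG-1a, EPCAM at 9.22 in Kasumi-1 and the erythroid factor KLF1 at 11.32 in OCI-M1. In KG-1a, SPI1 (4.85), MPO (4.90), KIT (2.71) and LYZ (5.14) stood below PTPRC (7.69) and CD34 (9.67).

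The members fell most broadly in OCI-AML3. In that line, 29 of 37 members fell and 0 rose (limma; 0 rose also at an unadjusted p under 0.05), against 6.36% of all genes tested that fell and 5.5% that rose. All 37 values were below 0, with a median of -0.52 and a range from -0.94 to -0.11, beside a median of -0.03 over all genes. The largest falls were those of PNO1 (-0.94), WDR3 (-0.92), LYAR (-0.88), UTP15 (-0.86) and POLR1B (-0.86). The calls of WDR3, LYAR and UTP15 were lost without some single arrays. The level of an mRNA on an array cannot tell fewer cells of a type from less RNA per cell, and an array normalized to a common distribution shows a change relative to other genes.

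**Figure D1:**
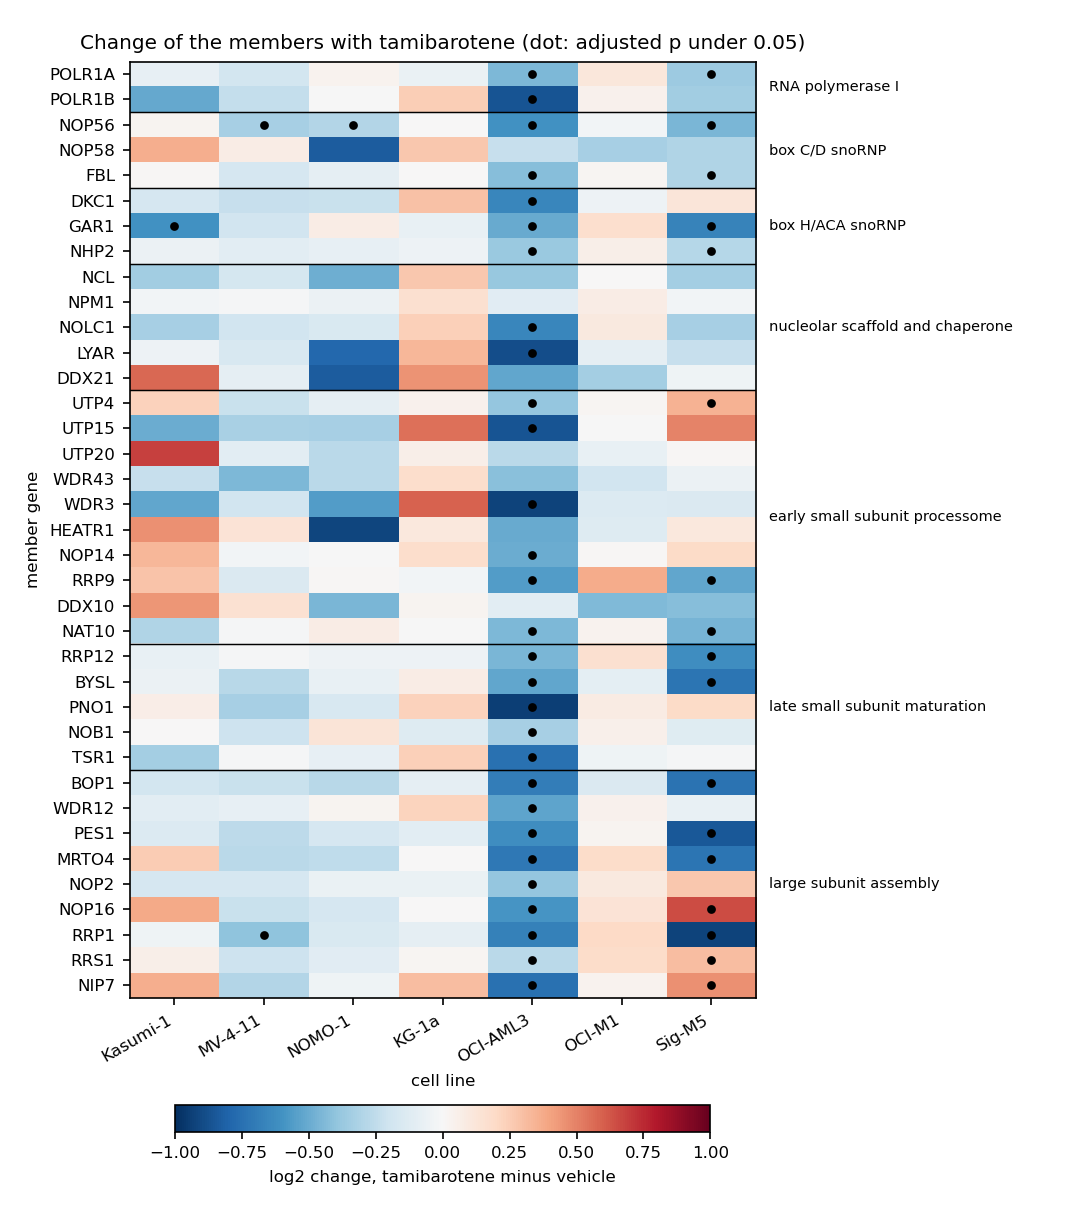
Heat map of the log2 change (tamibarotene minus vehicle, colour scale from -1 to 1) of the 37 measured members (vertical, by role) in the 7 lines (horizontal); a black dot marks an adjusted p under 0.05. The OCI-AML3 column is blue throughout and holds 29 dots, and the Sig-M5 column holds 13 dots on falls and 4 on rises.

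Both RNA polymerase I subunits fell in OCI-AML3. POLR1B, which with POLR1A forms the catalytic core of the enzyme, read 7.92, 7.66 and 7.66 with tamibarotene and 8.63, 8.48 and 8.72 with vehicle. The treated arrays all lay below the vehicle arrays, and the change was -0.86 ± 0.15 (adjusted p = 7.65e-05, n = 3 and 3); the signal fell by 44.9%. POLR1A read 8.93, 8.87 and 8.85 with tamibarotene and 9.35, 9.42 and 9.22 with vehicle, also without overlap (-0.45 ± 0.11, adjusted p = 0.0043).

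Among the box C/D snoRNP proteins, NOP56 and FBL fell and NOP58 did not pass the test. NOP56, a core scaffold protein of these particles, read 11.49, 11.44 and 11.41 with tamibarotene and 12.06, 12.06 and 12.05 with vehicle. Its arrays were tight within each arm and far apart between arms (-0.61 ± 0.07, adjusted p = 8.64e-08). FBL, fibrillarin, the methyltransferase of the particle, read 12.17, 12.15 and 12.13 with tamibarotene and 12.60, 12.58 and 12.56 with vehicle (-0.43 ± 0.06, adjusted p = 2.88e-06), again with no overlap. NOP58, the partner of NOP56, read 8.82, 8.87 and 9.15 with tamibarotene and 9.38, 8.37 and 9.78 with vehicle, so that vehicle replicate 2 lay below all treated arrays (-0.23 ± 0.40, adjusted p = 0.876).

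All 3 box H/ACA members fell. DKC1, dyskerin, the pseudouridine synthase that is also part of telomerase, read 10.43, 10.23 and 10.29 with tamibarotene and 10.93, 10.86 and 11.12 with vehicle. Every treated array was lower than every vehicle array (-0.65 ± 0.13, adjusted p = 0.000307). GAR1 (-0.50 ± 0.15) and NHP2 (-0.37 ± 0.07), also proteins of the particle, fell as well.

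Of the nucleolar scaffold and chaperone proteins, NOLC1 and LYAR fell, and NCL, NPM1 and DDX21 did not pass. NOLC1, a chaperone of snoRNPs, changed by -0.65 ± 0.14 (adjusted p = 0.00114). NCL, nucleolin, an abundant protein that binds nascent ribosomal RNA, read 11.49, 11.48 and 11.70 with tamibarotene and 12.0004, 11.50 and 12.29 with vehicle, with the arms overlapping through vehicle replicate 2 (-0.38 ± 0.22, adjusted p = 0.373). NPM1, nucleophosmin, the main structural protein of the outer nucleolus, read 12.45, 12.47 and 12.45 with tamibarotene and 12.55, 12.49 and 12.66 with vehicle. The NPM1 arms did not overlap, yet the difference was small beside the pooled spread (-0.11 ± 0.09, adjusted p = 0.613).

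Of the 10 members of the early small subunit processome, UTP4, UTP15, WDR3, NOP14, RRP9 and NAT10 fell. WDR3, a WD-repeat subunit, read 6.95, 6.54 and 6.85 with tamibarotene and 7.81, 7.24 and 8.05 with vehicle, with no overlap but a wide spread among vehicle arrays (-0.92 ± 0.26, adjusted p = 0.0127). UTP15 (-0.86 ± 0.26) and UTP4 (-0.39 ± 0.10) belong to the subcomplex that joins the precursor early. NAT10, which acetylates ribosomal RNA, was at -0.45 ± 0.11 and RRP9, a protein of the box C/D particle that guides the first cuts, at -0.56 ± 0.14. HEATR1 was at -0.50, WDR43 at -0.42, UTP20 at -0.27 and DDX10, an RNA helicase, at -0.11, and none of these passed.

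All 5 late small subunit factors fell. PNO1, which sits near the final cleavage site of the small subunit RNA, read 9.34, 9.28 and 9.34 with tamibarotene and 10.29, 10.25 and 10.23 with vehicle. The signal fell by 47.8%, the most among members in this line, with the arms far apart (-0.94 ± 0.11, adjusted p = 6.22e-08). NOB1, the endonuclease that makes that cut, was at -0.33 ± 0.09, TSR1, a GTPase-like assembly factor, at -0.75 ± 0.11, BYSL at -0.52 ± 0.10 and RRP12 at -0.46 ± 0.11.

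All 9 large subunit assembly factors fell. BOP1, PES1 and WDR12 form the PeBoW complex, needed to process the large subunit RNA. BOP1 read 9.99, 10.08 and 9.94 with tamibarotene and 10.69, 10.72 and 10.68 with vehicle (-0.69 ± 0.10, adjusted p = 6.25e-06). MRTO4, which holds the place of the ribosomal stalk during assembly, read 9.84, 9.78 and 9.75 with tamibarotene and 10.53, 10.65 and 10.34 with vehicle (-0.71 ± 0.10, adjusted p = 1.4e-06). In both genes the treated arrays lay wholly below the vehicle arrays. PES1 (-0.62), WDR12 (-0.53), NIP7 (-0.74), RRP1 (-0.67), NOP16 (-0.59), NOP2, a methyltransferase of the large subunit RNA (-0.39), and RRS1 (-0.27) followed.

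The OCI-AML3 count stood at 22 to 24 when any of its 6 arrays was left out, and 21 of the 29 calls held without each of them. NOP2 lost the call whichever of the 6 arrays was left out. GAR1, LYAR, NOP14 and RRS1 lost it in 5 of these 6 cases, UTP15 in 4, WDR3 in 3 and NOB1 in 2. Their changes then ran from -0.25 for RRS1 without vehicle replicate 2 to -0.91 for LYAR without tamibarotene replicate 3. In 28 members with further probe sets, 49 of 53 other probe sets were below 0 in OCI-AML3, with a median of -0.51; in Sig-M5, 29 of 53 were, with a median of -0.06.

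**Figure D2:**
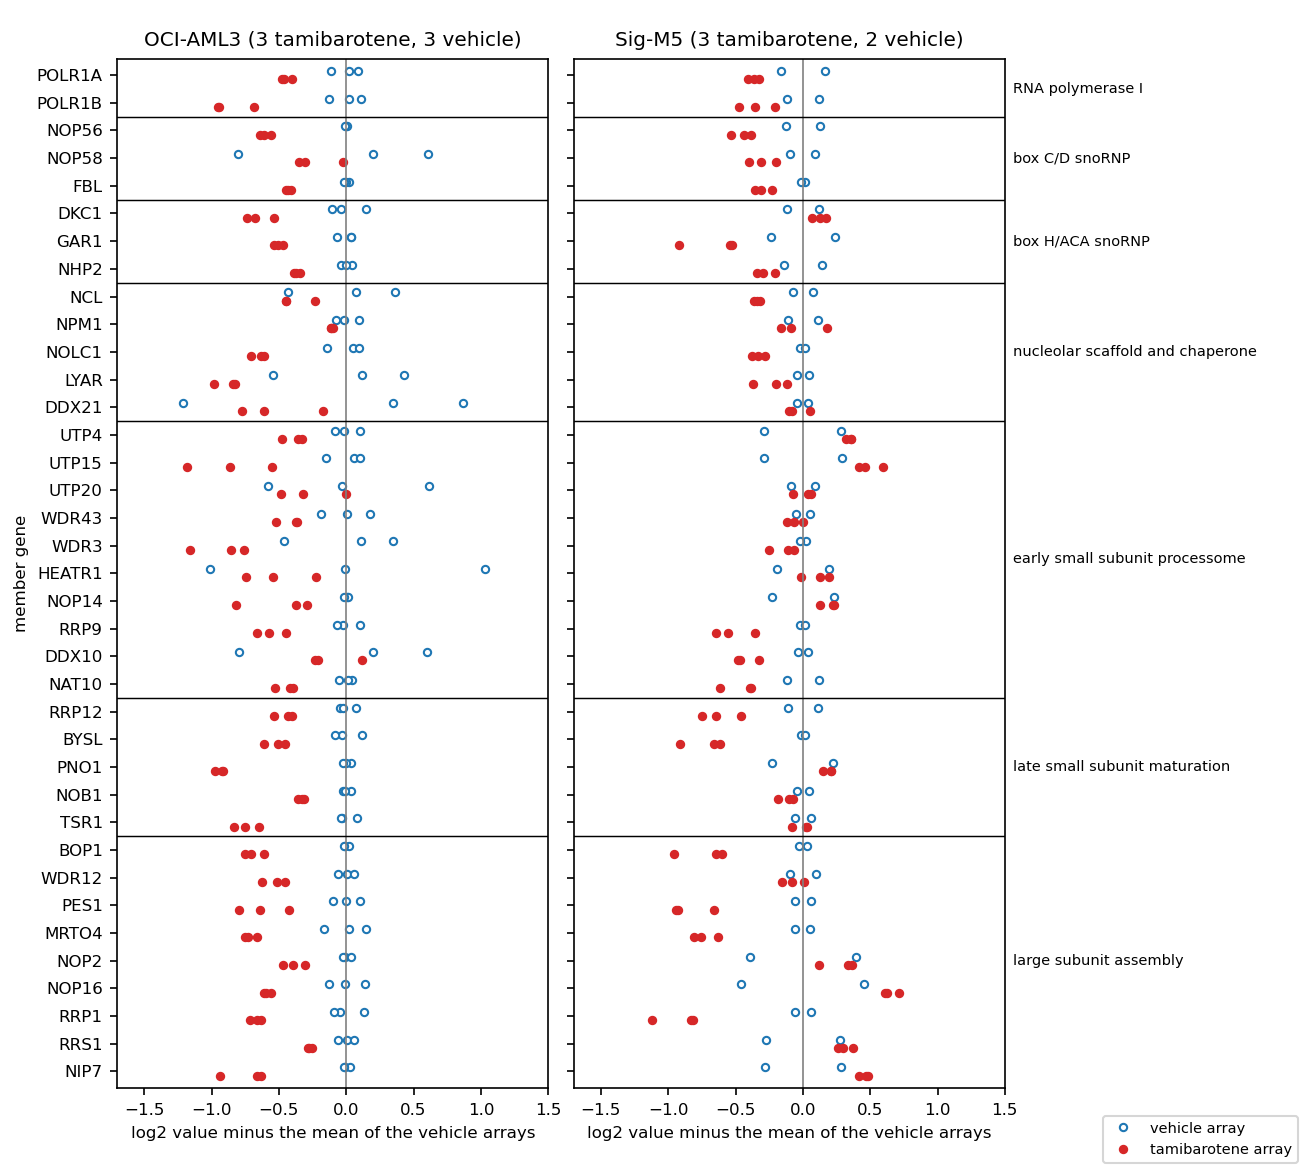
Log2 value of each array minus the mean of the line's vehicle arrays (horizontal) for the 37 members (vertical) in OCI-AML3 and Sig-M5; filled red points are tamibarotene arrays and open blue points vehicle arrays. In OCI-AML3 most red points lie to the left of all blue points, whereas DDX21, HEATR1, NOP58 and DDX10 have vehicle arrays on both sides; in Sig-M5 NOP16, NIP7 and RRS1 have vehicle arrays far apart.

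Sig-M5 showed falls in 13 members and rises in 4, against 18.4% of all genes that fell and 8.5% that rose there. All 13 genes that fell were also called down in OCI-AML3, and the 4 that rose were called down in OCI-AML3 too. As 29 of the 37 members were called down in OCI-AML3, this overlap says little by itself. Its share over all genes was not computed. The median member was at -0.23, beside -0.10 over all genes. RRP1, a nucleolar factor of large subunit assembly, read 7.94, 7.65 and 7.95 with tamibarotene and 8.71 and 8.83 with vehicle, without overlap (-0.93 ± 0.12, adjusted p = 4.41e-07). PES1 read 9.14, 9.12 and 9.41 with tamibarotene and 10.13 and 10.01 with vehicle (-0.85 ± 0.13, adjusted p = 6.8e-06), also without overlap. BOP1 (-0.74), MRTO4 (-0.73), BYSL (-0.73), GAR1 (-0.66), RRP12 (-0.62), RRP9 (-0.52), NAT10 (-0.47), NOP56 (-0.45), POLR1A (-0.36), FBL (-0.30) and NHP2 (-0.28) made up the falls. Other probe sets of some of these genes did not show the fall in Sig-M5: with p adjusted over all probe sets, the other set of GAR1 was at -0.04, that of POLR1A at 0.36, those of NHP2 at -0.09 and 0.08 and those of NAT10 at -0.30 and -0.09, and none passed. With the mean of all probe sets of a gene, POLR1A (-0.00447), NHP2 (-0.10), NAT10 (-0.28) and BYSL (-0.34) were no longer called. All 3 other probe sets of NOP56 (-0.52 to -0.32), the other set of MRTO4 (-0.93) and those of RRP12 (-0.55 and -0.74) fell as well. The other sets of RRP1 were nearer 0, at -0.35, which passed, and -0.34, which did not. Those of BYSL (-0.14 and -0.15) did not pass. Among members not called in Sig-M5, other sets of WDR3 (1.29), NOLC1 (0.60), NOP2 (0.33), HEATR1 (0.46 and 0.41) and POLR1B rose. Other sets of LYAR (-0.98) and NPM1 (-0.57) fell.

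The 4 rises of Sig-M5 were those of NOP16 (0.65 ± 0.15), NIP7 (0.46 ± 0.16), UTP4 (0.35 ± 0.11) and RRS1 (0.31 ± 0.10), and in each gene vehicle replicate 2, the array with the actin difference of 1.89, was the lowest array. NOP16 read 10.52, 10.44 and 10.42 with tamibarotene and 10.27 and 9.35 with vehicle, so that the 2 vehicle arrays differed by more than the change. The other probe sets of NOP16 were at -0.07 and 0.38 in Sig-M5, and neither passed with p adjusted over all probe sets. The other set of NIP7 rose there (0.35), and UTP4 and RRS1 have 1 probe set each. With the arrays of largest actin difference in each of these lines, vehicle replicate 2 of Sig-M5 and of Kasumi-1 (called the doubted arrays from here), left out, an alternative added after the data were seen, 10 members fell and 0 rose in Sig-M5 (limma; 12 were below and 0 above at an unadjusted p under 0.05), against 11.7% and 4.8% of all genes. NOP16 was then at 0.19, NIP7 at 0.18, UTP4 at 0.06 and RRS1 at 0.04. Of the falls, POLR1A (-0.20), GAR1 (-0.42) and RRP9 (-0.50) were no longer called, while RRP1 (-0.87), PES1 (-0.91), BOP1 (-0.70), MRTO4 (-0.68), BYSL (-0.71), RRP12, NAT10, NOP56, FBL and NHP2 were. The vehicle array that remained had an actin difference of 0.81, beside 0.31 to 0.34 in the treated arrays. With the actin difference as a covariate over all arrays, 7 members fell and 0 rose in Sig-M5, and NOP56 (-0.30, adjusted p = 0.0654), RRP12 (-0.31, adjusted p = 0.231), NAT10 (-0.28), GAR1 (-0.12), POLR1A (-0.09) and RRP9 (-0.65) did not pass. Left out singly, vehicle replicate 1 gave 11 falls and 6 rises, with NHP2 (-0.14) and NAT10 (-0.35) no longer called.

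The other 5 lines held few called members. In MV-4-11, 2 members fell and 0 rose (13 were below and 0 above at an unadjusted p under 0.05, limma), against 3.4% and 4.32% of all genes. The members' median was -0.19 and 34 of 37 were below 0. NOP56 read 11.64, 11.62 and 11.66 with tamibarotene and 11.99, 12.04 and 11.87 with vehicle (-0.33 ± 0.07, adjusted p = 0.00114) and RRP1 8.43, 8.55 and 8.57 with tamibarotene and 8.99, 8.78 and 9.002 with vehicle (-0.40 ± 0.10, adjusted p = 0.0103). Neither gene's arms overlapped. RRP1 lost the call without tamibarotene replicate 1 (-0.36), vehicle replicate 1 (-0.37) or vehicle replicate 3 (-0.37), and the count was 1 without any of these, 3 without tamibarotene replicate 2 and 4 without vehicle replicate 2. It was 7 without the doubted arrays of Sig-M5 and Kasumi-1, against 4.19% of all genes that fell.

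In NOMO-1, NOP56 alone fell and 0 members rose (8 below and 0 above at an unadjusted p under 0.05, limma), against 0.711% and 2.77% of all genes. It read 11.03, 11.17 and 11.06 with tamibarotene and 11.33, 11.35 and 11.46 with vehicle, without overlap (-0.29 ± 0.07, adjusted p = 0.0119). The call was lost without tamibarotene replicate 1 (-0.26), tamibarotene replicate 3 (-0.28) or vehicle replicate 3 (-0.25), and 3 members were called without vehicle replicate 2. HEATR1 (-0.92), DDX21 (-0.84), NOP58 (-0.83) and LYAR (-0.79) had larger differences in NOMO-1 that did not pass.

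In Kasumi-1, GAR1 alone fell and 0 members rose (5 below and 5 above at an unadjusted p under 0.05, limma), against 2.36% and 0.48% of all genes. GAR1 read 9.71, 9.73 and 9.97 with tamibarotene and 10.69 and 10.11 with vehicle (-0.60 ± 0.17, adjusted p = 0.049). The treated arrays were all lower, but the vehicle arrays stood apart from each other, and without vehicle replicate 2, the array with the actin difference of 1.18, GAR1 was at -0.31 (adjusted p = 0.622). The call was also lost without tamibarotene replicate 1 (-0.56) or 2 (-0.57); without vehicle replicate 3, 3 members fell and 5 rose.

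In KG-1a, 0 members fell and 0 rose (limma; 0 below and 3 above, namely WDR12, DKC1 and WDR3, at an unadjusted p under 0.05), against 1.88% and 1.21% of all genes. The median was 0.06. In OCI-M1, 0 fell and 0 rose (limma; 0 below and 2 above, RRP9 and RRS1, at an unadjusted p under 0.05), against 0.386% and 0.7% of all genes, with a median of 0.03. The members of these lines ran from -0.13 to 0.59 in KG-1a and from -0.44 to 0.37 in OCI-M1.

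Read across lines, single genes show how uneven the responses were. NOP56 fell in 4 lines, GAR1 and RRP1 in 3, and 8 members were called in none. The share of all genes called in as many lines was not computed. NOP56 read 12.27, 12.26 and 12.26 with tamibarotene and 12.29 and 12.23 with vehicle in KG-1a and 12.44, 12.34 and 12.39 with tamibarotene and 12.44, 12.44 and 12.37 with vehicle in OCI-M1. It read 11.83, 11.95 and 11.91 with tamibarotene and 11.94 and 11.79 with vehicle in Kasumi-1 and 12.26, 12.12 and 12.21 with tamibarotene and 12.53 and 12.78 with vehicle in Sig-M5. In the first 3 of these lines the arms overlapped, and in Sig-M5 they did not.

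FBL read 12.91, 12.99 and 12.94 with tamibarotene and 13.14, 13.03 and 13.18 with vehicle in MV-4-11 and 11.98, 11.99 and 11.93 with tamibarotene and 12.09, 12.10 and 11.98 with vehicle in NOMO-1. It read 12.70, 12.73 and 12.86 with tamibarotene and 12.77 and 12.74 with vehicle in Kasumi-1, 12.99, 13.01 and 13.004 with tamibarotene and 12.98 and 13.02 with vehicle in KG-1a and 13.06, 13.09 and 13.01 with tamibarotene and 13.04, 13.04 and 13.02 with vehicle in OCI-M1. In Sig-M5 it read 12.06, 11.93 and 11.97 with tamibarotene and 12.30 and 12.27 with vehicle. The arms were apart in MV-4-11 (-0.17, adjusted p = 0.0911) and in Sig-M5 (-0.30, adjusted p = 0.00102), and they met or overlapped in the other 4 of these lines.

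DKC1 read 11.29, 10.96 and 11.09 with tamibarotene and 11.20 and 11.36 with vehicle in Kasumi-1 and 10.61, 10.62 and 10.43 with tamibarotene and 10.68, 11.11 and 10.56 with vehicle in MV-4-11. It read 10.38, 10.23 and 10.61 with tamibarotene and 10.52, 10.49 and 10.88 with vehicle in NOMO-1 and 11.81, 11.82 and 11.64 with tamibarotene and 11.54 and 11.38 with vehicle in KG-1a. It read 11.30, 11.29 and 11.54 with tamibarotene and 11.42, 11.45 and 11.42 with vehicle in OCI-M1 and 11.30, 11.25 and 11.19 with tamibarotene and 11.25 and 11.01 with vehicle in Sig-M5. KG-1a was the line of these 6 with no overlap, the treated arrays being the higher ones (0.30, adjusted p = 0.382), and DKC1 was called in OCI-AML3 and in no other line.

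POLR1B read 9.08, 8.40 and 8.80 with tamibarotene and 9.39 and 9.16 with vehicle in Kasumi-1, 8.30, 8.24 and 8.01 with tamibarotene and 8.33, 8.64 and 8.28 with vehicle in MV-4-11 and 8.05, 8.11 and 8.22 with tamibarotene and 8.03, 7.87 and 8.49 with vehicle in NOMO-1. It read 8.87, 8.95 and 8.82 with tamibarotene and 8.76 and 8.50 with vehicle in KG-1a and 9.01, 9.05 and 9.37 with tamibarotene and 9.07, 9.07 and 9.16 with vehicle in OCI-M1. In Sig-M5 it read 8.72, 8.87 and 8.60 with tamibarotene and 8.96 and 9.20 with vehicle. The treated arrays were lower without overlap in Kasumi-1 (-0.51, adjusted p = 0.0873) and Sig-M5 (-0.35, adjusted p = 0.128) and higher without overlap in KG-1a (0.25), none of which passed. The Sig-M5 value depends on the probe set: of the 5 other sets of POLR1B, 3 rose there (0.65, 0.56 and 0.55, p adjusted over all probe sets 0.00194, 0.00993 and 0.0227), and the others were at 0.02 and -0.07. In OCI-AML3 all 5 fell (-0.86 to -0.75).

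BOP1 read 10.58, 10.79 and 10.68 with tamibarotene and 11.09 and 10.65 with vehicle in Kasumi-1 and 10.19, 10.22 and 10.30 with tamibarotene and 10.55, 10.42 and 10.41 with vehicle in MV-4-11. It read 9.09, 9.05 and 8.87 with tamibarotene and 9.28, 9.47 and 9.09 with vehicle in NOMO-1 and 10.49, 10.50 and 10.50 with tamibarotene and 10.58 and 10.58 with vehicle in KG-1a. It read 10.51, 10.45 and 10.36 with tamibarotene and 10.49, 10.62 and 10.63 with vehicle in OCI-M1 and 10.26, 9.90 and 10.21 with tamibarotene and 10.83 and 10.89 with vehicle in Sig-M5. BOP1 was the 1 member below 0 in all 7 lines, with -0.09 in KG-1a and -0.14 in OCI-M1, and it was called in OCI-AML3 and Sig-M5. Its arms did not overlap in MV-4-11, KG-1a and Sig-M5, where the treated arrays were the lower ones.

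MRTO4 read 10.15, 10.30 and 10.28 with tamibarotene and 9.85 and 10.13 with vehicle in Kasumi-1 and 9.93, 9.998 and 10.06 with tamibarotene and 10.34, 10.21 and 10.25 with vehicle in MV-4-11. It read 9.52, 9.47 and 9.38 with tamibarotene and 9.65, 9.84 and 9.62 with vehicle in NOMO-1 and 10.75, 10.70 and 10.70 with tamibarotene and 10.71 and 10.71 with vehicle in KG-1a. It read 10.63, 10.46 and 10.34 with tamibarotene and 10.51, 10.21 and 10.16 with vehicle in OCI-M1 and 9.35, 9.17 and 9.23 with tamibarotene and 9.93 and 10.04 with vehicle in Sig-M5. The treated arrays lay above the vehicle arrays in Kasumi-1 (0.25, adjusted p = 0.201) and below them in MV-4-11 (-0.27, adjusted p = 0.0924) and NOMO-1 (-0.25, adjusted p = 0.191), none of which passed, and it lay below them in Sig-M5 (-0.73), where the gene fell.

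The abundant nucleolar proteins NCL and NPM1, each read from its brightest probe set, were called in none of the lines. NCL read 10.65, 10.92 and 11.15 with tamibarotene and 11.35 and 11.16 with vehicle in Kasumi-1, 11.71, 11.86 and 11.20 with tamibarotene and 11.46, 12.22 and 11.61 with vehicle in MV-4-11 and 11.02, 10.99 and 11.41 with tamibarotene and 11.67, 11.07 and 12.16 with vehicle in NOMO-1. It read 12.46, 12.45 and 12.27 with tamibarotene and 12.09 and 12.15 with vehicle in KG-1a, 11.82, 11.82 and 12.28 with tamibarotene and 12.09, 11.90 and 11.92 with vehicle in OCI-M1 and 12.77, 12.75 and 12.72 with tamibarotene and 13.01 and 13.16 with vehicle in Sig-M5. In KG-1a the treated arrays were the higher ones, in Sig-M5 and Kasumi-1 the lower ones, and elsewhere the arms overlapped. NPM1 read 12.84, 12.74 and 12.86 with tamibarotene and 12.82 and 12.87 with vehicle in Kasumi-1, 12.51, 12.46 and 12.27 with tamibarotene and 12.33, 12.58 and 12.36 with vehicle in MV-4-11 and 12.28, 12.37 and 12.52 with tamibarotene and 12.48, 12.34 and 12.53 with vehicle in NOMO-1. It read 12.71, 12.77 and 12.78 with tamibarotene and 12.58 and 12.60 with vehicle in KG-1a, 12.76, 12.86 and 12.96 with tamibarotene and 12.74, 12.79 and 12.83 with vehicle in OCI-M1 and 13.15, 13.50 and 13.22 with tamibarotene and 13.20 and 13.43 with vehicle in Sig-M5. NPM1 arms overlapped in these lines except KG-1a, where treated arrays were higher (0.16, adjusted p = 0.585). The dimmest of its 5 other probe sets fell in OCI-AML3 (-0.56, p adjusted over all probe sets 0.00735) and in Sig-M5 (-0.57, 0.00711), and the other 4 passed in neither line.

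Averaged over the 7 lines, 17 members fell and 0 rose (limma; 23 below and 0 above at an unadjusted p under 0.05), against 12.4% and 6.71% of all genes. The largest falls were those of BOP1 (-0.33 ± 0.04, adjusted p = 1.68e-07), PES1 (-0.30 ± 0.05) and RRP1 (-0.30 ± 0.04). Of the 17 calls, 14 held without any single array; POLR1A was lost without Kasumi-1 vehicle replicate 2 (-0.12, adjusted p = 0.0549), among others, and WDR43 and PNO1 without arrays of several lines. With Kasumi-1 and Sig-M5 out of the average, 9 of the 17 were still called.

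The responses differed between lines by the moderated F test (6 degrees of freedom) in 24 of 37 members, against 27.4% of all genes. MRTO4 (adjusted p = 2.53e-06), PNO1 (4.93e-06) and RRP1 (1.5e-05) had the smallest p. Compared with the other 6 lines on average, the response of OCI-AML3 was lower in 18 members and higher in 0 (limma; 28 and 0 at an unadjusted p under 0.05), against 3.67% and 4.15% of all genes. PNO1 (-0.95 ± 0.12), NIP7 (-0.88 ± 0.15), POLR1B (-0.73 ± 0.16), NOP16 (-0.72 ± 0.14) and TSR1 (-0.70 ± 0.12) stood farthest below among those called. With Kasumi-1 and Sig-M5 out of the fit, added after the data were seen, 25 members were lower in OCI-AML3 than in the other 4 lines and 0 higher, against 4.97% and 4.14% of all genes.

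Sig-M5 was lower than the other 6 lines in 8 members and higher in 5, against 15.3% and 7.57%, and without the doubted vehicle arrays in 8 and 1, against 9.79% and 3.99%. OCI-M1 was lower in 0 and higher in 3 (RRP1, MRTO4 and RRP9), against 1.72% and 1.79%, and KG-1a lower in 0 and higher in 4 (NOP56, DKC1, TSR1 and WDR12), against 3.08% and 1.82%. Kasumi-1 was lower in 0 and higher in 2 (NOP56 and MRTO4), against 4.05% and 1.31%. Without the doubted arrays it was higher in 1, against 0.469% of all genes. MV-4-11 was lower in 0 and higher in 0 (5 and 0 at an unadjusted p under 0.05, limma), against 1.75% and 3.04%, as was NOMO-1 (1 and 3 unadjusted, limma), against 0.689% and 1.92%. These contrasts share arrays with each other, so a line that stands low pulls the others up.

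Other genes of ribosome biogenesis, listed by function, also fell in OCI-AML3. Like the members, they were chosen with earlier results of these data known, so their counts are no independent check. Among 110 measured, 41 fell and 0 rose (limma; 59 and 0 at an unadjusted p under 0.05), against 6.36% and 5.5% of all genes, with a median of -0.36. They comprised 12 of 38 small subunit processome genes, 17 of 39 large subunit assembly genes, 5 of 9 snoRNP genes, 4 of 12 exosome genes and 3 of 12 RNA polymerase I genes. FTSJ3, a methyltransferase of precursor RNA, was at -0.48, WDR18 at -0.46, NOC4L at -0.44, RRP36 at -0.30, the helicase RUVBL2 at -0.34 and the exosome subunits EXOSC7 and EXOSC10 at -0.34 and -0.32. TCOF1, counted with the snoRNP genes, encodes treacle, which acts in ribosomal DNA transcription, and was at -0.53. Of the polymerase I genes, POLR1F was at -0.31 and TAF1A at 0.10 in OCI-AML3, and neither passed.

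Few genes of the structural ribosomal proteins changed. Of 65 cytosolic ribosomal protein genes measured, 2 fell in OCI-AML3, RPL35A (-0.93 ± 0.13) and RPL27A (-0.71 ± 0.16), and 0 rose (limma; 4 and 0 at an unadjusted p under 0.05), against the same 6.36% and 5.5%. Their median was -0.04, with the middle of the list between -0.09 and -0.01. In Sig-M5, 37 of the 110 other ribosome biogenesis genes fell and 6 rose, and 2 of the 65 ribosomal protein genes fell and 3 rose, against 18.4% and 8.5% of all genes.

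**Figure D3:**
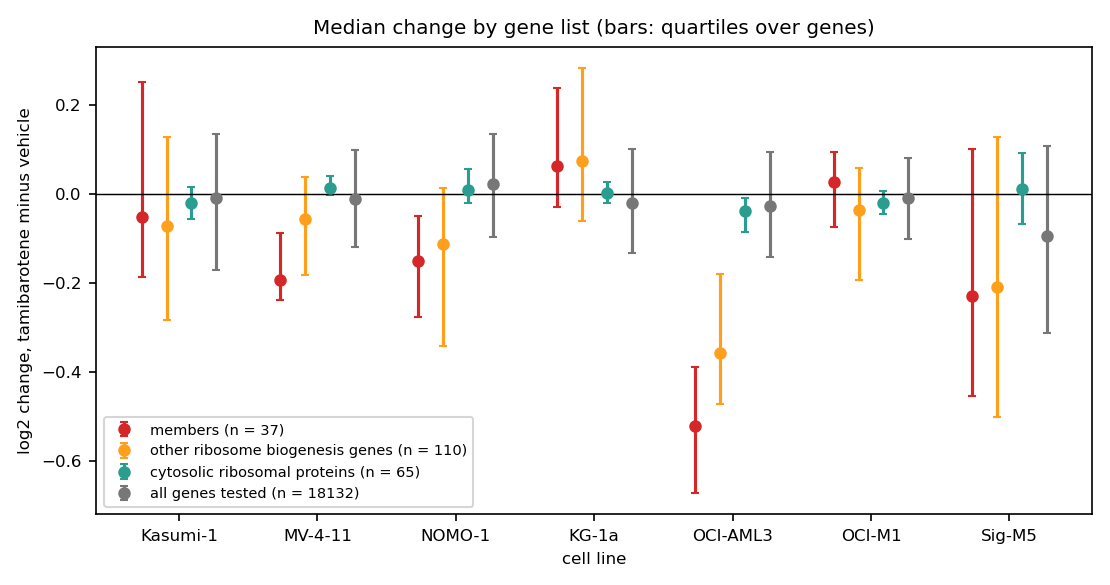
Median log2 change (tamibarotene minus vehicle, vertical) in each line (horizontal) for the members, the other ribosome biogenesis genes, the cytosolic ribosomal proteins and all genes tested; bars run from the first to the last quartile over genes. In OCI-AML3 the members are at -0.52 and the other ribosome biogenesis genes at -0.36, while ribosomal proteins (-0.04) and all genes (-0.03) are near 0.

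MYC, the transcription factor, fell in OCI-AML3 from a vehicle mean of 11.90 ± 0.04 (SD, n = 3) to 11.24 ± 0.04 (SD, n = 3), by 0.66 ± 0.10 (adjusted p = 1.62e-05). In Sig-M5 it rose by 0.59 ± 0.11 (adjusted p = 0.000203), and without the doubted vehicle arrays it was at 0.28 ± 0.11 (adjusted p = 0.068). MXI1, an antagonist of MYC, fell by 0.91 ± 0.10 in OCI-AML3, and MXD1, another, was at -0.03 ± 0.19. Of 11 genes of the MYC network, 2 fell there and 0 rose, against 6.36% and 5.5% of all genes. The maturation markers CD38 and ITGAM rose in OCI-AML3 (2.81 and 1.34) and in Sig-M5 (3.51 and 3.83), the list's remaining gene, CD14, fell in both lines, and CD38 also rose in the other lines, by 0.92 in OCI-M1 to 7.18 in MV-4-11. Their part in the members' falls was not tested. In OCI-AML3 the 15 measured members with an E-box in the window had a median change of -0.505 (12 fell) and the 17 with a window but no E-box -0.59 (13 fell).

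In the vehicle arrays, harvested at the same 24 h, the lines differed in every measured member. The F test over vehicle means called 37 of 37, against 78.6% of all genes, and the highest and lowest line differed 1.44-fold (NOP14) to 12.4-fold (HEATR1), with a median of 2.69-fold. The members were bright, with 2 of 37 under the median level of all genes. The share called among genes of like level was not computed. FBL, NOP56 and POLR1A had the smallest p. FBL was lowest in NOMO-1 (12.06) and highest in MV-4-11 (13.12), NOP56 lowest in NOMO-1 (11.38) and highest in Sig-M5 (12.65), and POLR1A lowest in NOMO-1 (7.99) and highest in KG-1a (9.84), as means of vehicle arrays.

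NOMO-1 stood lowest. Against the mean of the other 6 lines, 32 of 37 members were lower in NOMO-1 and 0 higher (limma; 35 and 0 at an unadjusted p under 0.05), against 27.5% and 19.3% of all genes, and NOMO-1 was the lowest of the 7 lines for 20 members. The share of all genes with their lowest level in NOMO-1 was not computed. The differences from the mean of the other 6 lines ran from -1.40 ± 0.08 for BOP1 and -1.23 ± 0.11 for RRP9 to -0.26 ± 0.08 for PNO1. Their median was -0.60. NCL, LYAR, DDX21, NOP58 and HEATR1 were the 5 that did not pass. Without the doubted arrays of Kasumi-1 and Sig-M5 the count was 31, against 26.8% of all genes.

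KG-1a was lower in 4 members and higher in 19, against 20.1% and 21.5% of all genes, and OCI-M1 lower in 3 and higher in 19, against 30.4% and 22.5%. OCI-AML3, the line with the broad fall, was lower in 2 and higher in 16, against 18.3% and 18.2%. Sig-M5 was lower in 11 and higher in 17, against 28.1% and 28.9%, Kasumi-1 lower in 14 and higher in 8, against 19.5% and 21.9%, and MV-4-11 lower in 13 and higher in 7, against 18.7% and 21.2%. Without the doubted arrays Kasumi-1 was lower in 9 and higher in 7, against 15.5% and 16.2% of all genes. Sig-M5 was then lower in 11 and higher in 15, against 23.6% and 20.9%.

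**Figure D4:**
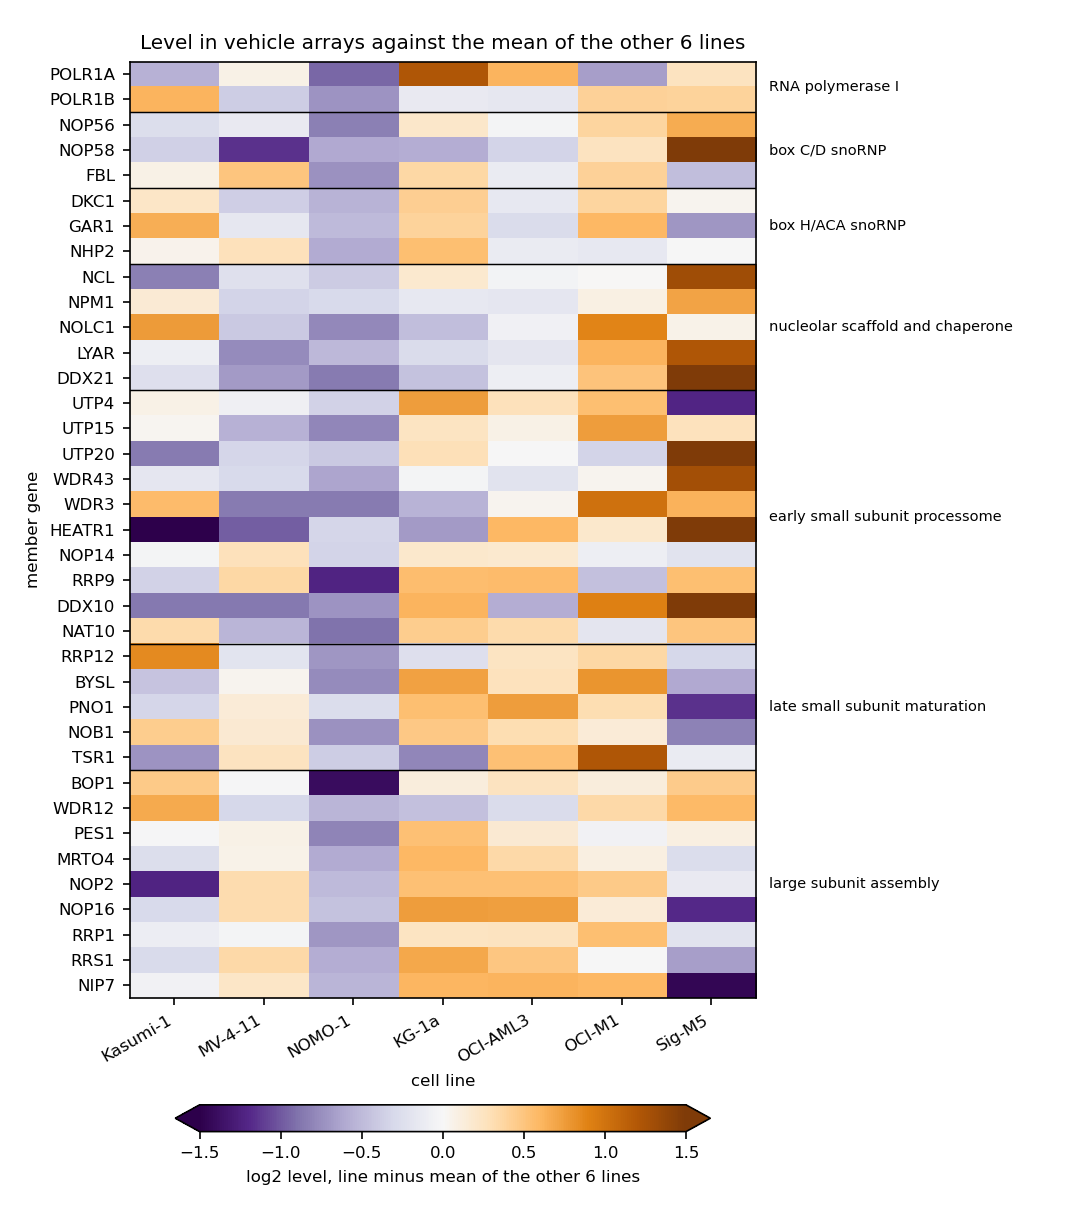
Heat map of the vehicle level of each member (vertical) in each line (horizontal) minus the mean of the other 6 lines, on the log2 scale with colours ending at -1.5 and 1.5. NOMO-1 is below the mean of the other 6 lines for all 37 members, and Sig-M5 holds cells far above (NOP58 2.79, HEATR1 2.72) and far below that mean (NIP7 -1.45, UTP4 -1.21).

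Some members varied widely between replicates of the same group. DDX21, an RNA helicase of the nucleolus, read 8.73, 8.56 and 9.16 with tamibarotene and 9.68, 8.12 and 10.21 with vehicle in OCI-AML3, and its pooled within-group SD was 0.63, above that of 99.5% of all genes. NOP58 (0.53), HEATR1 (0.51), DDX10 (0.44), LYAR (0.38), UTP15 (0.34), WDR3 (0.33), NCL (0.28) and UTP20 (0.27) also lay above 0.25, a value chosen after the data were seen. At the other end FBL had an SD of 0.05 and NOP56 of 0.07. Of the 8 members not called in OCI-AML3, DDX21, NOP58, HEATR1, DDX10, NCL and UTP20 were among the 9 with wide spread, and WDR43 and NPM1 were not.

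**Figure D5:**
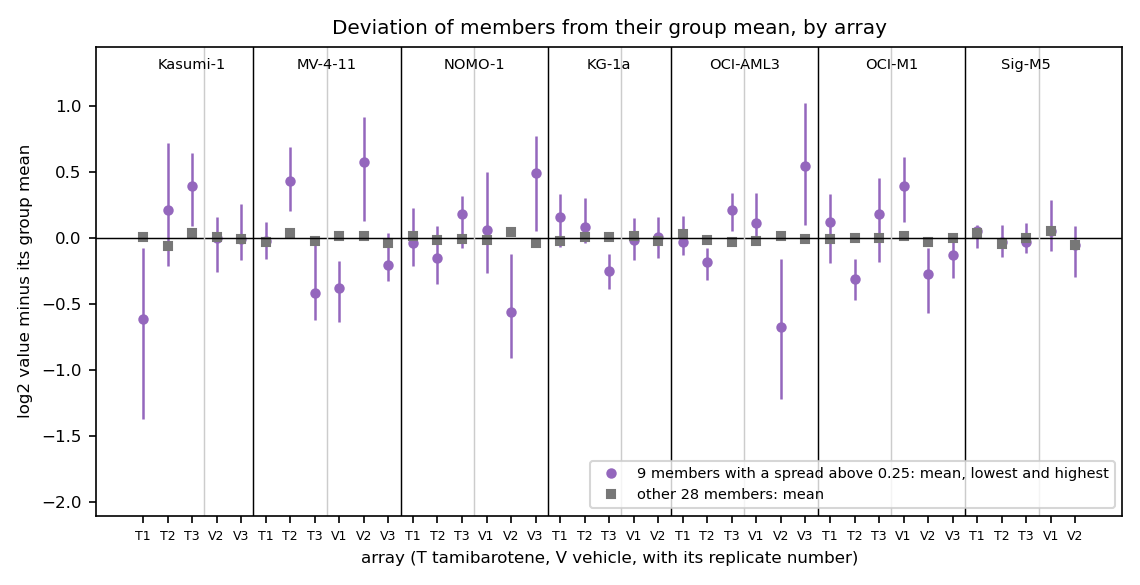
Deviation of log2 values from their group mean (vertical) for each of the 39 arrays (horizontal; T tamibarotene, V vehicle, with the replicate number). Purple points and bars are the mean, lowest and highest of the 9 members with SD above 0.25, and grey squares the mean of the other 28; in OCI-AML3 the vehicle arrays 2 and 3 stand at -0.67 and 0.55 for the 9 members and within 0.02 of 0 for the others.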

How the data were processed

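Gene expression was measured on 39 PrimeView arrays, 21 with tamibarotene and 18 with vehicle. The deposited values are log2 intensities; the submitters' processing notes name RMA and affy without a version, and do not give which arrays were normalized with which. Of 49395 probe sets, 44994 name 1 symbol, 1832 several, and the rest none or controls; each gene was read from the probe set that names it alone with the highest mean over all arrays, giving 18132 genes. One mean per group (14 combinations of line and arm) was fitted with limma 3.58.1 (lmFit and eBayes, 25 residual degrees of freedom) in R 4.3.3 with the package data.table (version 1.17.8). P-values were adjusted over all genes by Benjamini-Hochberg and called under 0.05. Contrasts were the change in each line, their average, each line against the mean of the other 6, and the same for vehicle levels. The fit was tested on simulated data. Promoters were read and figures drawn with Python 3.11.15, pandas 2.3.3 and matplotlib 3.10.9.

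The members and lists were chosen with earlier results of these data known. All members could be named; values of every array were printed for NOP56, FBL, DKC1, NCL, NPM1, POLR1B, BOP1 and MRTO4, for the 2 called members of each line with the largest non-overlapping change, and for others beside a result. From other lists, MYC, MXD1, CD38 and the 2 called genes with the smallest p on average were named. NOP58, POLR1A, NOP16 and DDX21 had their arrays printed, and CD14, CD3D, EPCAM, KLF1, RPL35A and RPL27A were named, after their values were seen. Deviations of same-numbered samples correlated at 0.12 to 0.37 in OCI-M1, 0.0995 to 0.67 in MV-4-11 and 0.01 to 0.57 in NOMO-1. They correlated at -0.04 to 0.46 in OCI-AML3, -0.17 to 0.12 in Kasumi-1, -0.07 to 0.01 in KG-1a and at -0.04 in Sig-M5. Every pair was over 0.1 in OCI-M1 alone, and replicate numbers were not used as pairs. The reported fit thus leaves out any pairing that the lines hold, which then counts as spread within groups. The alternatives tried were other normalizations, probe-set rules, filters, array weights, a replicate block, the actin difference as a covariate, other variance settings, single-line fits and leaving out arrays. The number of arrays limits the precision.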

Additional observations from a re-analysis of the deposited data

Results flagged for a closer look

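In 24 members the response to tamibarotene differed between the 7 lines by the moderated F test (limma, Benjamini-Hochberg over all genes). The adjusted p was 2.53e-06 for MRTO4, 4.93e-06 for PNO1, 1.5e-05 for RRP1, 3.13e-05 for NOP56, 0.000217 for NOP16, 0.000373 for NIP7, 0.000559 for FBL and 0.00056 for TSR1. It was 0.000881 for BYSL, 0.000982 for WDR12, 0.00153 for PES1, 0.00236 for RRP12, 0.00255 for RRP9, 0.00264 for BOP1, 0.003 for UTP4 and 0.00321 for POLR1B. The remaining members were RRS1 (0.00452), DKC1 (0.00612), GAR1 (0.0147), NAT10 (0.0199), NOLC1 (0.0217), NHP2 (0.0232), UTP15 (0.0437) and POLR1A (0.0464). With Kasumi-1 and Sig-M5 out of the fit, 22 members differed between the other 5 lines, against 15% of all genes.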

How the results depend on the processing

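The fall of the members in OCI-AML3 was called in 27 to 32 genes under the alternatives to the reported 29, and in 22 to 24 without single arrays. Counts in the lines with few calls moved more, and the cause was not tested. In Kasumi-1 the 1 fall became 0 with quantile normalization, array weights, the actin covariate, the line fitted alone or the doubted arrays left out, and 3 falls and 4 rises with the replicate block. In MV-4-11 the 2 falls became 4 with the mean of probe sets, the replicate block or trend and robust settings, 5 with the actin covariate, 6 without dim genes, 16 with array weights and 0 with the line alone. In NOMO-1 the 1 fall became 4 with the block and 0 with the line alone. Array weights gave 7 rises in KG-1a and 1 in OCI-M1. In Sig-M5 the 4 rises became 2 with array weights or the block and 0 with the actin covariate, the line alone or the doubted arrays left out, and the 13 falls became 7 with the actin covariate. Under that covariate the changes of UTP4 (-0.11), NOP16 (-0.030) and NIP7 (-0.24) in Sig-M5 reversed. Without single replicates the falls ranged from 1 to 4 in MV-4-11, 0 to 3 in NOMO-1 and 0 to 3 in Kasumi-1, and the rises from 0 to 5 in Kasumi-1, 0 to 1 in OCI-M1 and 0 to 6 in Sig-M5. The replicate block (11 residual degrees of freedom) gave 29 falls in OCI-AML3 and 14 in Sig-M5. Vehicle levels differed in 36 members with the mean of probe sets. Signal over background could not be read from these summarised values.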

Other observations

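The 9 members with a within-group SD above 0.25 moved up and down together between replicate arrays. Over the 39 arrays, which share their group means, the deviations of pairs among them had a median correlation of 0.76 (0.43 to 0.97), beside a median of 0.02 (-0.77 to 0.91) for pairs of the other 28 members. Their mean deviation was -0.67 in OCI-AML3 vehicle replicate 2 and 0.55 in vehicle replicate 3, where DDX21 read 8.12 and 10.21. With tamibarotene in that line, the mean deviation was -0.18 in replicate 2 and 0.21 in replicate 3, on the same sides. In replicate 1 it was 0.12 with vehicle and -0.03 with tamibarotene. The reported fit counts such shared shifts as spread for these members. It was -0.61 in Kasumi-1 tamibarotene replicate 1 and 0.58 in MV-4-11 vehicle replicate 2. Among all genes, the deviations most like those of DDX21 were those of ABCE1 (r = 0.98), CSE1L (r = 0.98) and DEK (r = 0.98). None of these genes is a member, so the pattern is not particular to the members. Correlations among other genes of wide spread were not computed. These values are descriptions, and the cut of 0.25 was chosen after the data were seen.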
